A study of Rattus norvegicus with 20 samples.

Results

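The genes described here encode 9 transcription factors that build and maintain heart muscle, Gata4, Gata6, Nkx2-5, Mef2a, Mef2c, Mef2d, Tbx5, Hand2 and Srf, and Rcan1, a regulator of the phosphatase calcineurin. They were taken by name, through all probe sets that the annotation gives to exactly 1 of these 10 genes. These are 10 of 14217 genes, and 20 of 31099 probe sets, of which 20826 belong to exactly 1 gene. Mef2a had 4 probe sets, Srf 3, Gata4, Gata6, Mef2c, Mef2d and Hand2 2 each, and Nkx2-5, Tbx5 and Rcan1 1 each.

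The study used left ventricle of Dahl rats, in which dietary salt can raise blood pressure. A normal heart and a failed heart (CHF in the labels) were compared, on 10 Affymetrix rat expression arrays each: mRNA, genomic DNA before immunoprecipitation (pre-IP), and chromatin immunoprecipitates (ChIP) for 8 histone marks. These were acetylation of H3 (H3ac) and of H4 (H4ac), dimethylation of K4, K9 and K27 (K4me2, K9me2, K27me2) and trimethylation of K4, K9 and K20 (K4me3, K9me3, K20me3), with no histone named for the methylated lysines. Every sample but the normal H4ac one is labelled as 19 weeks old, and the labels give a high-sodium diet for the failed mRNA sample alone, and no diet for the others. The normal H4ac sample is called acetylated H4 in its title and description and pre-IP DNA as its source, and was used as H4ac. Each assay was run on a single array per heart and each experiment on 1 ventricle specimen. No replicate error or test can therefore be given, and every difference is one between arrays of 1 animal or specimen against another. The probes were designed for transcripts, so a ChIP value describes DNA under those probes and not a promoter.

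The factors act as a network. GATA4 and GATA6 are zinc finger proteins, NKX2-5 is a homeodomain protein, TBX5 a T-box protein and HAND2 a basic helix-loop-helix protein, and they bind together at genes of the contractile apparatus and of natriuretic peptides. MEF2 proteins and SRF share the MADS domain and bind A/T-rich sites, MEF2 under the restraint of class II histone deacetylases and SRF with cofactors of the myocardin family. Calcineurin, when activated by calcium, dephosphorylates NFAT, which enters the nucleus and acts with GATA4 and MEF2 in hypertrophy. RCAN1 binds calcineurin, and its shorter transcript, from an internal start, is itself induced by NFAT, which makes its level a common readout of calcineurin activity.

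On the mRNA arrays, Gata4, at 1 of its 2 probe sets, and Rcan1 were more than 2-fold higher in the failed heart. Tbx5, Srf, Mef2c and Mef2a were higher by less than 2-fold. Gata6 and Mef2d were lower by less than 2-fold, and Nkx2-5 and Hand2 were nearly level. Here a gene is given by its probe set with the highest mean mRNA intensity over both hearts. The Gata4 probe sets were close in the normal heart, at 129 and 125, so this choice rests on the failed value, 365 against 100.04. Intensities are on a scale where the median of each array is 100, values under 10 are set to 10 before log2 is taken, and every difference is log2 of the failed minus log2 of the normal heart. Differences were counted at 2-fold, a log2 difference of 1, among probe sets whose mean level reached the median of all, an intensity of 96.2 for mRNA. Of the 20 probe sets 17 passed this level, 15 of them in each heart alone. Of the 17, 2 were at least 2-fold higher in the failed heart and 0 lower. Among all 11652 such probe sets 11.7% were higher and 3.39% lower, so the count for these genes lay at the background. Without rescaling the split of all such probe sets was 6.02% higher and 7.24% lower, and after quantile normalization 6.63% and 5.88%. The median difference over the 10 genes, all of which passed the level filter by these probe sets, was 0.57. The median was 0.15 over all 14217 genes and 0.23 over the 9317 that passed. Over the 17 passing probe sets it was 0.16, below the 0.22 of all passing probe sets. These directions depend on the scaling. Without rescaling, which shifts all mRNA differences by -0.27, the median over the 10 genes was 0.30, and after quantile normalization it was 0.07. Of the 20 probe sets, 14 had a difference above 0, against 54.9% of all probe sets. Without rescaling 10 did, against 43.8% of all, and after quantile normalization 10 did, against 49.0%.

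**Figure D1:**
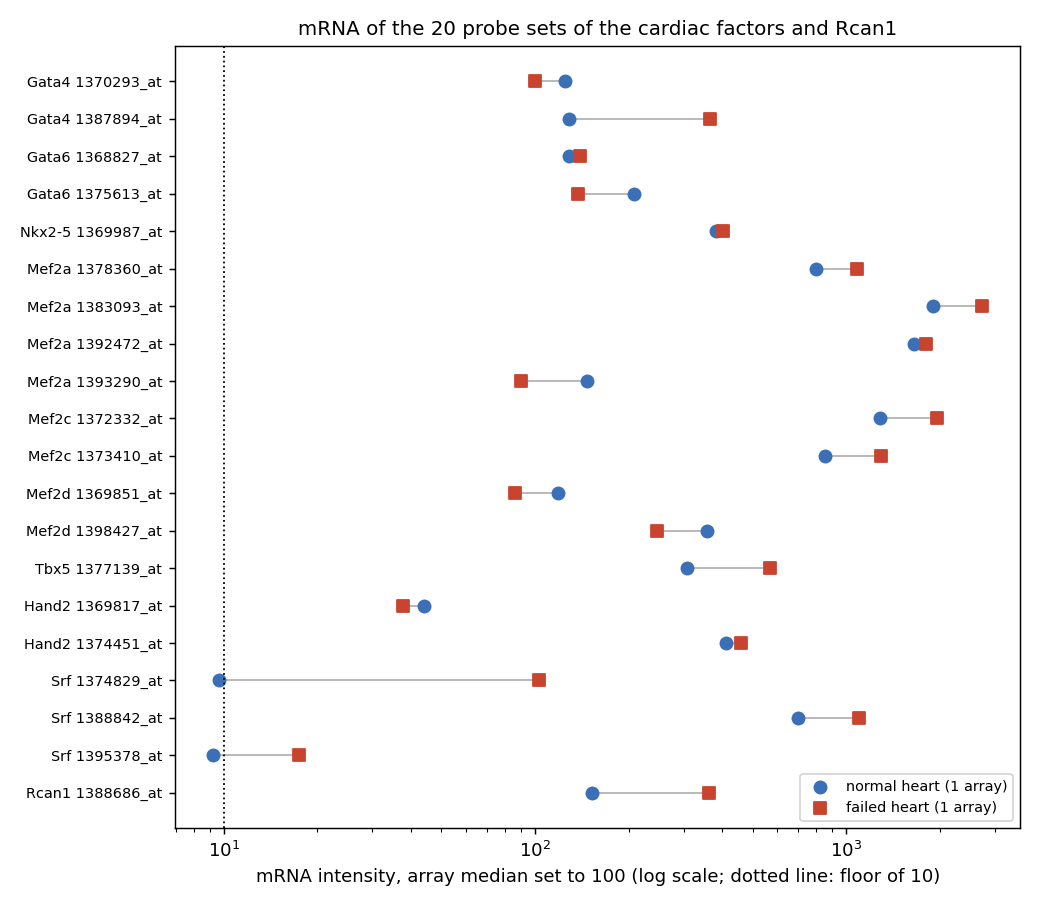
mRNA intensity (array median 100, log scale) of the 20 probe sets in the normal heart (circles) and the failed heart (squares), 1 array each. The lines are long for Gata4 1387894_at, Rcan1 and Srf 1374829_at, whose normal value of 9.68 lies under the floor of 10 (dotted), and short for Nkx2-5.

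Gata4 had probe sets that went apart. At 1387894_at its intensity was 129 in the normal heart and 365 in the failed one, a difference of 1.50. At 1370293_at it was 125 and 100.04, a difference of -0.32. The first is above 2-fold under every scaling run, with 1.23 without rescaling and 1.40 after quantile normalization, and the mean of both probe sets is 0.59. Gata6, the partner factor that overlaps with Gata4 in cardiac myocytes, was not higher in step with it: 1375613_at read 208 and 138, a difference of -0.59, and 1368827_at read 129 and 139, a difference of 0.11 that became -0.16 without rescaling. Of the 4 probe sets of this pair, 1 was thus past 2-fold.

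Nkx2-5, an early marker of the cardiac lineage, had an intensity of 382 in the normal heart and 401 in the failed one. The difference of 0.07 became -0.20 without rescaling and -0.14 after quantile normalization, so it has no settled direction. Tbx5, which in the embryo patterns chambers and in the adult supports conduction, read 307 and 569. Its difference of 0.89 was the third highest of the 10 genes and lay between 0.63 and 0.89 under the settings run. Hand2, needed for the right ventricle in the embryo, read 411 and 460 at 1374451_at, a difference of 0.16 that turned to -0.10 without rescaling. Its other probe set, 1369817_at, was dim, with 43.9 and 37.6, and did not pass the level filter.

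Among the MEF2 genes, Mef2c was higher and Mef2d lower at each of their probe sets. Mef2c, needed early in the embryonic heart, read 1278 and 1961 at 1372332_at and 855 and 1296 at 1373410_at. The differences were 0.62 and 0.60, and remained above 0 without rescaling, at 0.35 and 0.33, and after quantile normalization, at 0.16 and 0.24. Mef2d, a mediator of stress signalling in the adult heart, read 356 and 246 at 1398427_at and 119 and 86.5 at 1369851_at, with differences of -0.53 and -0.46. Those were lower under each scaling, between -0.45 and -0.80. Mef2a, which predominates in the adult heart, had 4 probe sets that did not go one way. It read 1898 and 2729 at 1383093_at, a difference of 0.52, 798 and 1082 at 1378360_at, 0.44, and 1648 and 1798 at 1392472_at, 0.13. At 1393290_at it read 147 and 90.1, a difference of -0.70. After quantile normalization the first of these was -0.02, so a higher Mef2a mRNA rests on the scaling.

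Srf had 1 bright probe set, 1388842_at, at 698 in the normal heart and 1100 in the failed one. The difference of 0.66 remained above 0 without rescaling, at 0.39, and after quantile normalization, at 0.32. Both other probe sets lay below the level filter with a normal value under the floor. For 1374829_at the values were 9.68 and 103, and for 1395378_at 9.25 and 17.4, so their differences of 3.36 and 0.80 are those from the floor and depend on it: with a floor of 50 they were 1.04 and 0.00.

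Rcan1 read 153 in the normal heart and 363 in the failed one at its 1 probe set, a difference of 1.25 or 2.38-fold. It was 1.13 after quantile normalization and just under 2-fold, at 0.98, without rescaling. Which Rcan1 transcript the probe set reads was not analysed here.

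All probe sets of a gene lay on the same side of 0 in mRNA for 2 of the 5 genes with 2 probe sets, Mef2c and Mef2d, against 53.4% of all genes with 2. They did so for Srf with 3 (32.0% of all genes with 3), where both dim probe sets could not fall below 0 from a normal value under the floor, and not for Mef2a with 4 (22.4%). The control probe sets for RNA integrity differed between the hearts: for GAPDH, the 3′ probe set was 11.3 times as bright as the 5′ one in the normal heart and 22.6 times in the failed one. For beta-actin these ratios were 18.2 and 12.4. Their part in probe sets that disagree was not tested. The labels call the mRNA that of ventricular myocytes. Of 8 cardiac muscle markers 7 were measured and all 7 passed the level filter, with a summed intensity of 115477 and 144289. Markers of other cell types also passed: 5 of 5 for fibroblasts, summed at 13125 in the normal heart and 27185 in the failed one, 5 of 5 for macrophages and leukocytes at 2211 and 9418, 4 of 4 measured for endothelium at 7122 and 4886, 6 of 6 for smooth muscle and pericytes at 6530 and 4064, 2 of 2 measured for red blood cells at 1051 and 4181, and 1 of 3 for atrial muscle at 296 and 344. By the brightest probe set of each gene, some markers went against the sum of their list. These were Ptprc at -0.22 for leukocytes, where Lyz2 read 1325 and 7658, and Pecam1 at 0.26 for endothelium. Pdgfrb and Rgs5 did so at 0.14 and 0.44, Myh6 and Tnni3 at -1.03 and -0.38, and Sln and Myl4 at -1.53 and -0.06. The other measured markers went with the sum. No measured marker of these lists was under the floor in either heart. Gata6, Mef2c, Hand2 and Srf are also expressed by such cells. The part of such cells in the differences was not tested for any of the 10 genes, Gata4, Tbx5 and Rcan1 included. In these samples fewer cells of a type and less RNA per cell cannot be told apart.

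The DNA just before the start of 3 of these genes is shown for the motifs of factors of this network that a search of the letters found there. These are the 250 bases before 1 transcript start per gene, as the RefSeq table on GRCr8 sets it, printed 5′ to 3′ on the gene's strand. That start need not be the outer end of the gene: the windows of Mef2a and Rcan1 lie inside the span RefSeq gives the gene, and the last bases of the Srf window do. They were read from a table that held 8 of the 10 genes, and the arrays did not measure them. Srf is shown because its capitals mark 2 CArG boxes, the site that SRF itself binds. Mef2a is shown because its capitals mark a MEF2 box, and Rcan1 because its capitals mark both matches to GGAAA, the core of the NFAT motif.
Srf chr9:21923826-21924075 (+ strand): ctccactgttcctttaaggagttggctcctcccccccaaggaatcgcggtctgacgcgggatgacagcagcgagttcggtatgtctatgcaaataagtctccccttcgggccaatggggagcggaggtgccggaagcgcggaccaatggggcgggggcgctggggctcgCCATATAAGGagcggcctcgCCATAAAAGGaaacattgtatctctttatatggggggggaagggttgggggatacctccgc
Mef2a chr1:130392163-130392412 (- strand): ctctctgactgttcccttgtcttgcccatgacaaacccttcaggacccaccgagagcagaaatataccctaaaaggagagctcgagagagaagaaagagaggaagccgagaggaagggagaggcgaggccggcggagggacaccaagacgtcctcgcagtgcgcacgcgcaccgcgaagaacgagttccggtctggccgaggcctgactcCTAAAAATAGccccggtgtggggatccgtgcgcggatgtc
Rcan1 chr11:45118237-45118486 (- strand): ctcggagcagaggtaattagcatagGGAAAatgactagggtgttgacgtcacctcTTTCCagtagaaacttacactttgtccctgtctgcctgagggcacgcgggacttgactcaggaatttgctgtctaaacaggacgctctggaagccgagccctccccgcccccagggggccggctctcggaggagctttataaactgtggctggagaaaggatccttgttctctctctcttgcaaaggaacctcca
Matches were sought on both strands and may overlap. A CArG box occurred in 1.5% of 33469 promoter windows of this length and a MEF2 box in 2.96%. Matches of Srf lie at bases -81 to -72 (CCATATAAGG) and -61 to -52 (CCATAAAAGG) before the start, and that of Mef2a at -40 to -31 (CTAAAAATAG). GGAAA occurred in 56.9% of windows and in 5 of the 8 of these genes, with 2 matches each in Rcan1, Nkx2-5 and Gata6 and 1 each in Srf and Tbx5. The Rcan1 matches lie at -225 to -221 and, on the other strand, at -195 to -191. GATA motifs (GATA with A or T before it and A or G after it) occurred in 27% of windows, and among these genes in 1 match each of Hand2 and Tbx5. CANNTG, the E-box that HAND2 binds with a partner, occurred in 65.5%, with 2 matches in Hand2 and 1 each in Tbx5 and Nkx2-5. AAGTG, the core of the site of NKX2-5, occurred in 40.6%, with 1 match each in Rcan1 and Hand2. A match is a match of letters and says nothing of binding in these hearts.

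The regulators around these genes were measured on the same mRNA arrays, in lists that do not hold the 10 genes themselves. Of the 9317 genes on the array that passed the level filter, 11.8% were higher by at least 2-fold and 3.14% lower, with a median difference of 0.23. The calcineurin and NFAT list had 20 of 22 measured genes passing, 1 higher and 0 lower, and a median of 0.14, which was -0.12 without rescaling and -0.06 after quantile normalization. Of the catalytic subunits of calcineurin, Ppp3ca differed by 0.03, Ppp3cb by 0.11 and Ppp3cc by -0.23. Other probe sets ran from -1.18 to 0.02 for Ppp3ca and from -0.43 to 0.76 for Ppp3cb, and the other of Ppp3cc was at 0.13. These genes thus have no settled direction. NFAT genes went apart, with 0.46 for Nfatc3, -0.64 for Nfatc1 and -0.80 for Nfatc2, with -0.30 at the other probe set of the last. Rcan2, a relative of Rcan1, differed by 0.79, and the calmodulin gene Calm2 by 0.82. The gene past 2-fold was Myoz2, a Z-disc protein that binds calcineurin, at 1.51, and after quantile normalization 0 genes were. Among the brightest probe set of each gene, the 1.25 of Rcan1 stood above all of this list but Myoz2, while a dimmer one of Csnk1a1 reached 3.66.

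The list of class II deacetylases and kinases that control MEF2 had 15 of 18 measured genes passing, 1 higher and 1 lower, with a median of -0.04. Without rescaling the median was -0.31 with 5 lower, and after quantile normalization -0.38 with 4 lower. Hdac5 and Hdac7, deacetylases that hold MEF2 silent, differed by -0.85 and -0.99, with 1.20 at the other probe set of Hdac5. Camk2g, a calcium-dependent kinase that can act on them, was lower at -1.14, with -0.17 at its other probe set. Ywhag and Ywhab, chaperones of the 14-3-3 family that keep phosphorylated deacetylases in the cytoplasm, differed by 1.33 and 0.71.

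Other cardiac transcription factors and cofactors had 16 of 22 measured genes passing, 3 higher and 0 lower, and a median of 0.17, or -0.09 without rescaling. Those past 2-fold were Ankrd1, a nuclear and sarcomeric stress protein, at 2.15, Tead1, a factor of the Hippo pathway, at 1.48 with 1.56 at its other probe set, and Hopx, a homeodomain protein that binds SRF and not DNA, at 1.46. Myocd, the SRF cofactor myocardin, differed by 0.41, and Zfpm2, the GATA4 partner FOG2, by 0.43, while Tead4 at -0.18 and Tbx18 at -0.05 were the lowest. Other probe sets ran from -1.66 to 0.00 for Zfpm2 and from -2.23 to 0.00 for Tead4.

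Genes whose promoters these factors are known to drive in heart muscle had the highest median of the 5 lists, 1.31, with 11 of 20 at least 2-fold higher and 1 lower. After quantile normalization the median was 0.68 with 6 higher. Nppa, which encodes atrial natriuretic peptide and is a classic target of GATA4, NKX2-5, TBX5 and SRF, differed by 4.30, and Csrp3, a stretch-associated muscle protein, by 2.54. The cardiac myosin gene Myh6 at -1.03, with -3.32 at its other probe set, and the troponin gene Tnni3 at -0.38 were the lowest. The separate list of immediate early and cytoskeletal targets of SRF had a median of 0.22, which was -0.04 without rescaling, with 4 of 15 higher and 3 lower. In it Egr2 at 3.36, with -1.34 at its other probe set, and Ccn2 at 3.04 were the highest and the smooth muscle genes Cnn1 at -1.50 and Tagln at -1.29 the lowest, beside the lower summed level of smooth muscle markers given above, to which both belong.

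**Figure D2:**
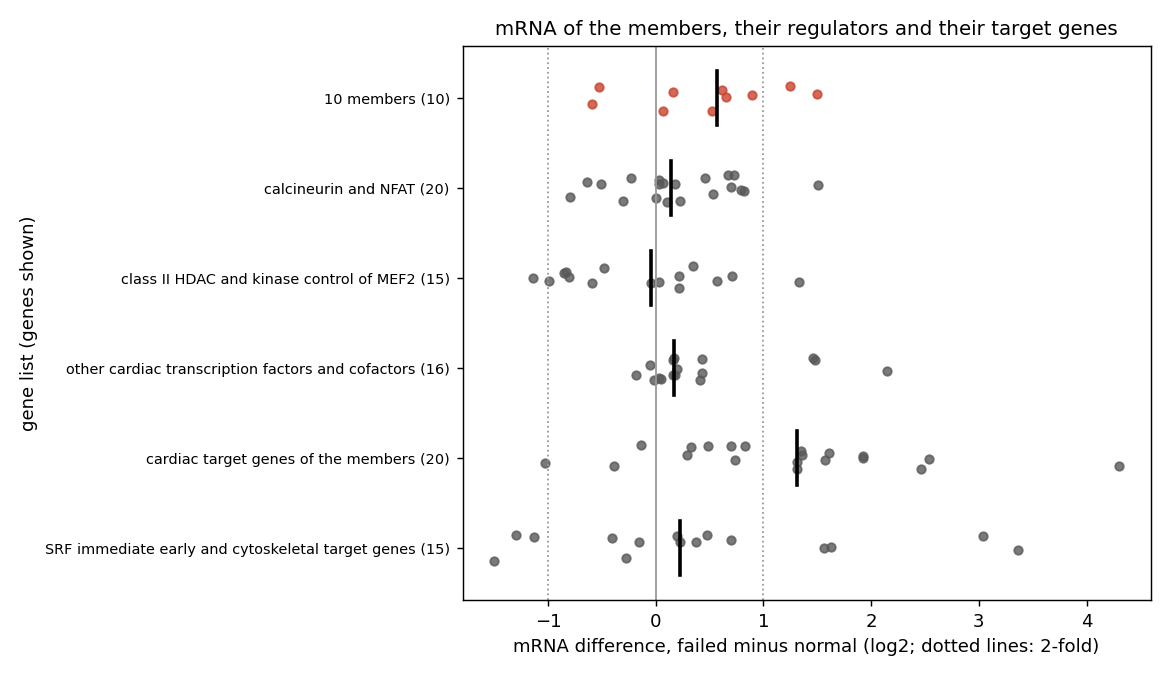
mRNA differences (failed minus normal, log2) of the 10 members and of the genes passing the level filter in 5 lists, 1 point per gene, with the median as a bar. The members spread from -0.59 to 1.50 around 0.57, while the list of target genes has its median at 1.31.

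Enrichment of a mark is the log2 intensity of its ChIP array less that of the pre-IP array from the same heart, and 0 means level with pre-IP DNA. At these genes acetylation and K4me2 lay mostly above pre-IP DNA, and K27me2, K20me3 and K9me2 mostly below it, in both hearts. H3ac was above 0 in both hearts at 13 of 20 probe sets, against 37.3% of all probe sets, and below in both at 2 (31%), with medians of 0.78 in the normal heart and 0.49 in the failed one. H4ac was above 0 in both at 13 (38.2%) and below at 2 (31.7%), with 0.59 and 0.48, and K4me2 at 14 (36.3%) and 3 (31.6%), with 0.55 and 0.83. K27me2 was below 0 in both at 13 (34.1%) and above at 2 (31.2%), with medians of -0.93 and -0.63. K20me3 was below at 12 (32.5%) and above at 1 (28%), with -0.40 and -0.26, and K9me2 at 11 (35.1%) and 2 (31.4%), with -0.71 and -0.59. K4me3 and K9me3 took no side: K4me3 was above 0 in both hearts at 6 (all: 26.8%) and below at 5 (29.8%), and K9me3 above at 3 (31.2%) and below at 5 (29.1%). Over all probe sets the medians of these enrichments lay between -0.06 and 0.07. The medians of H3ac, H4ac, K4me2, K9me2, K20me3 and K27me2 kept their sign in each heart under all 7 alternatives run, and the sizes varied, with 0.02 for H3ac in the failed heart after quantile normalization and 0.10 and 0.15 for K4me2 without rescaling as the smallest. Probe sets of 1 gene are not independent, and both hearts share probes.

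**Figure D3:**
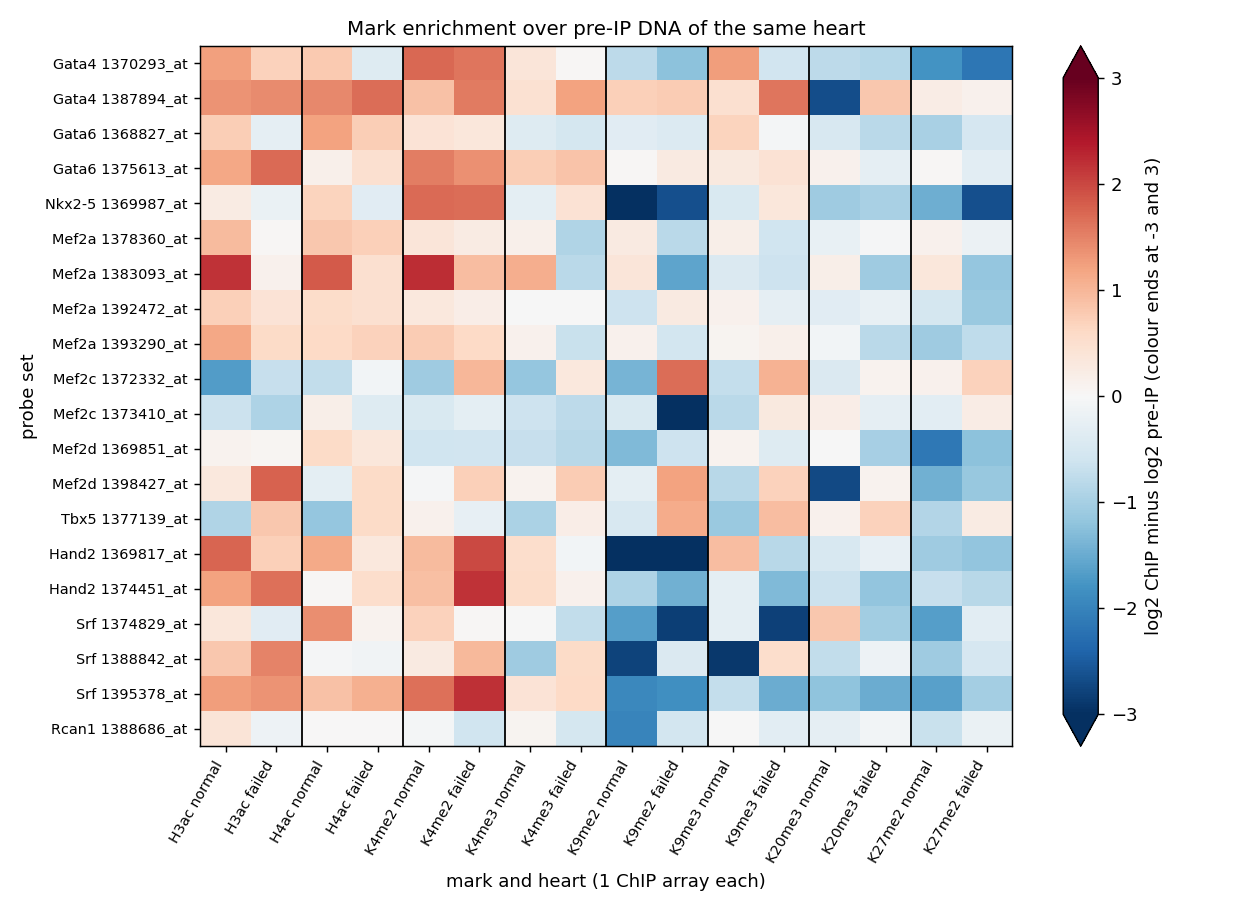
Enrichment of 8 marks (log2 ChIP minus log2 pre-IP) at the 20 probe sets, normal and failed heart side by side, 1 ChIP array each. H3ac, H4ac and K4me2 are mostly red, with medians from 0.48 to 0.83, and K27me2 mostly blue, with medians of -0.93 and -0.63.

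Only some of these values were large. Counting probe sets that passed the level filter and were at least 2-fold from pre-IP in both hearts, K4me2 had 4 of 15 above (background 18.4%), H3ac 3 of 15 above (10.6%), H4ac 0 of 13 (4.4%) and K4me3 0 of 13 (0.754%). K27me2 had 4 of 11 below (7.72%), K20me3 1 of 12 below (5.11%), K9me2 1 of 9 below (9.87%) and K9me3 0 of 11 below (5.78%). The K4me2 and H3ac counts thus lay within 2 probe sets of the background. In what follows, a probe set is called the highest for a mark when the smaller of its values in the hearts is the highest among the 20, and the lowest when the larger is the lowest; in a single heart others can lie further out.

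Gata4 and Nkx2-5, core factors of the myocyte programme, had high K4me2, as did probe sets of Srf, Gata6 and Hand2 given below. At Gata4 1370293_at the K4me2 intensity was 682 in the normal heart and 952 in the failed one over pre-IP values of 208 and 315, which are enrichments of 1.71 and 1.59. The same probe set was the lowest for K27me2, with intensities of 59.6 and 70.3 and enrichments of -1.80 and -2.16. At Gata4 1387894_at, the probe set with higher mRNA, H3ac was 1.34 and 1.42 and H4ac 1.44 and 1.68, the highest for both marks. This probe set was also the highest for K9me2, at 0.71 and 0.77, and for K9me3, at 0.47 and 1.62. All its marks but K20me3 lay above pre-IP in both hearts. None of its marks passed the level filter, and its pre-IP was 63.1 and 45.8. Nkx2-5 had K4me2 intensities of 296 and 200.1 over pre-IP of 91.2 and 62.2, enrichments of 1.7 and 1.69, the highest for this mark. Its K9me2 values, 9.52 and 7.39, were under the floor in both hearts.

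Hand2 had the same pattern at both probe sets: H3ac, H4ac and K4me2 above pre-IP and K9me2, K20me3 and K27me2 below it in both hearts. At 1374451_at, though, only H3ac and K4me2 of these marks passed the level filter, and H4ac was 0.04 in the normal heart. At 1369817_at all of them but K9me2 passed. No other gene with more than 1 probe set had 6 marks on the same side everywhere. H3ac at 1369817_at was 1.74 in the normal heart and 0.71 in the failed one, and at 1374451_at 1.21 and 1.65. K9me2 at 1369817_at was -4.1 and -4.37, the lowest for this mark, with the normal value under the floor and the failed value, 10.5, just above it.

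Srf had high K4me2 beside low K9me3, K20me3 and K27me2 at 1395378_at, a probe set with mRNA near the floor. There K4me2 read 1809 and 2108 over pre-IP of 577 and 461, enrichments of 1.65 and 2.19, and H3ac 1.25 and 1.34. K20me3 at -1.21 and -1.49 and K9me3 at -0.72 and -1.48 made it the lowest for both marks, and K27me2 was -1.63 and -1.01. Mef2a had H3ac, H4ac and K4me2 above pre-IP at all 4 probe sets in both hearts, from 0.05 to 2.16 for H3ac. Gata6 did so for H4ac and K4me2, with K4me2 of 1.53 and 1.37 at 1375613_at, which was also the highest for K4me3, at 0.74 and 0.86.

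Mef2c 1372332_at was the lowest for H3ac and H4ac, and Mef2d 1369851_at for K4me2 and K4me3. Mef2c, although its mRNA passed the level filter at both probe sets, had H3ac below pre-IP at both in both hearts, with -1.68 and -0.69 at 1372332_at and -0.65 and -0.92 at 1373410_at. At 1369851_at Mef2d had K4me2 of -0.59 and -0.58 and K4me3 of -0.68 and -0.83. Its H3ac, in contrast, lay above pre-IP at both probe sets in both hearts. H3ac was 0.10 and 0.06 at 1369851_at, and 0.31 and 1.76 at 1398427_at. Rcan1 had no mark 2-fold above pre-IP. Its H3ac was 0.39 and -0.16, its H4ac 0.01 and 0.02 and its K4me2 -0.05 and -0.61, and its K9me2 was -1.98 in the normal heart and -0.55 in the failed one. Of these marks none passed the level filter at Rcan1. Tbx5 lay on the same side of pre-IP in both hearts for 1 of the 8 marks, K20me3, and none of its 8 marks passed the level filter.

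Between the hearts, few enrichments of these genes differed 2-fold, in no common direction. Over the 8 marks 99 of the 160 values of probe set and mark passed the level filter. Of these, 9 were at least 2-fold higher in the failed heart, where the background ran from 4.91% for H4ac to 16% for K9me2, and 11 lower, with a background from 6.15% for K27me2 to 12.2% for K9me3. The median difference over the 20 probe sets was -0.28 for H3ac, -0.07 for H4ac, -0.04 for K4me2, -0.14 for K4me3, 0.07 for K9me2, -0.25 for K9me3, 0.01 for K20me3 and 0.30 for K27me2. The signs for K4me2, K4me3, K20me3 and K27me2 turned under at least 1 alternative. By mark, H3ac had 1 of 15 higher (10.9% of all) and 3 lower (8.53%), H4ac 0 of 13 higher (4.91%) and 2 lower (6.31%), K4me2 3 of 15 higher (11.8%) and 1 lower (6.31%), and K4me3 2 of 13 higher (9.17%) and 2 lower (9.98%). K9me2 had 1 of 9 higher (16%) and 1 lower (9.43%), K9me3 2 of 11 higher (8.98%) and 2 lower (12.2%), and K20me3 and K27me2 0 of 12 and 0 of 11 either way (8.74% and 8.56%, 6.82% and 6.15%).

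**Figure D4:**
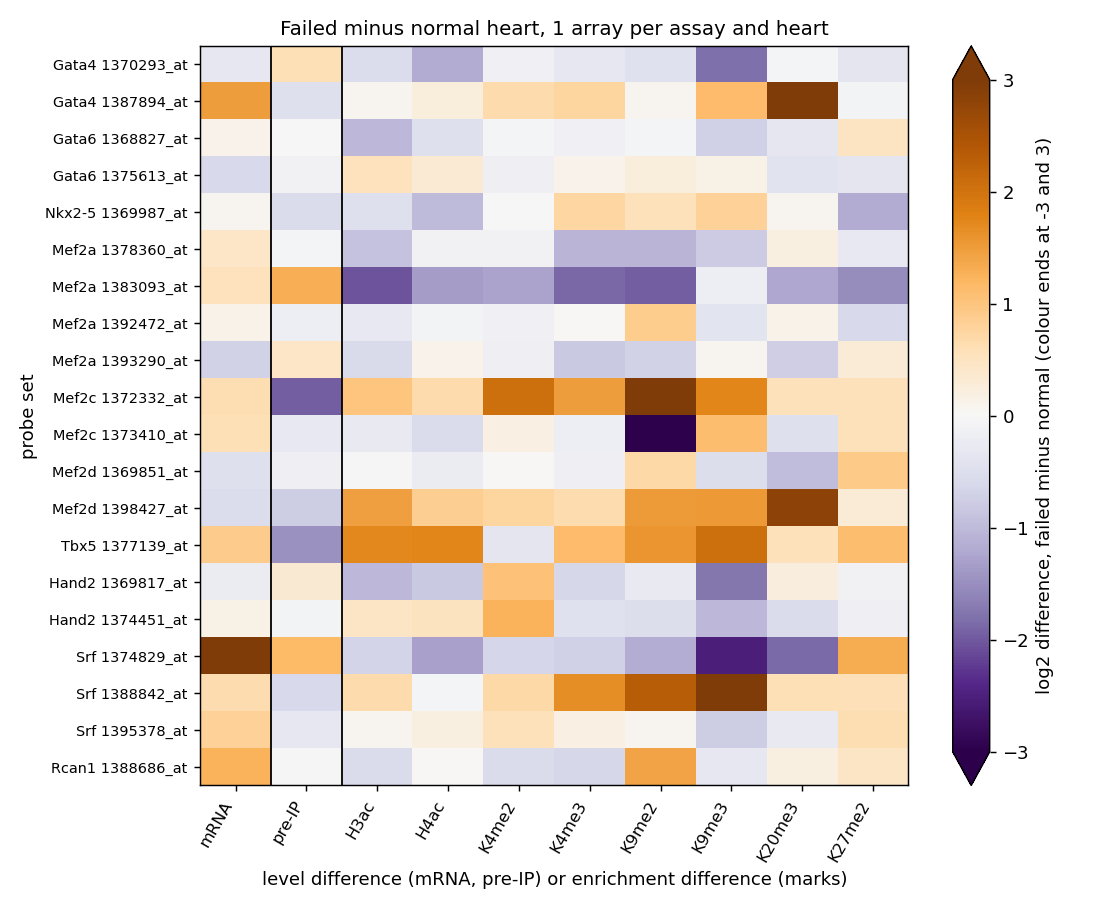
Differences between the hearts (failed minus normal, log2) at the 20 probe sets for mRNA level, pre-IP level and the enrichment of 8 marks. Mef2c 1372332_at is higher and Mef2a 1383093_at lower in all 8 marks, with pre-IP differences of -1.96 and 1.30.

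Many of these differences moved with the pre-IP array, which enters all 8 marks of a heart. At Mef2c 1372332_at pre-IP read 477 in the normal heart and 123 in the failed one, a difference of -1.96, and all 8 marks were higher, by 0.55 to 3.07. With the pre-IP values of both hearts averaged, which leaves the ChIP difference alone, 2 of the 8 were higher there: K9me2 at 1.11, with intensities of 181 and 390, and K4me2 at 0.10. Mef2c 1373410_at had a K9me2 difference of -2.97, with intensities of 115 and 12.1, and lay below the level filter. At Mef2a 1383093_at pre-IP read 71.8 and 177, a difference of 1.30, and all 8 marks were lower, by 0.19 to 2.04 in size, of which 3 were higher in ChIP alone. Tbx5, with a pre-IP difference of -1.47, from 95.2 to 34.4, was higher in 7 of 8 marks and in 4 in ChIP alone. Mef2d 1398427_at, with a pre-IP difference of -0.75, was higher in all 8, with 6 in ChIP alone. On the pre-IP arrays themselves 15 of the 20 were lower in the failed heart (49.3% of all probe sets). Of the 20, 13 passed the level filter, and of these 1 was 2-fold higher (background 3.93%) and 1 lower (3.75%).

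**Figure D5:**
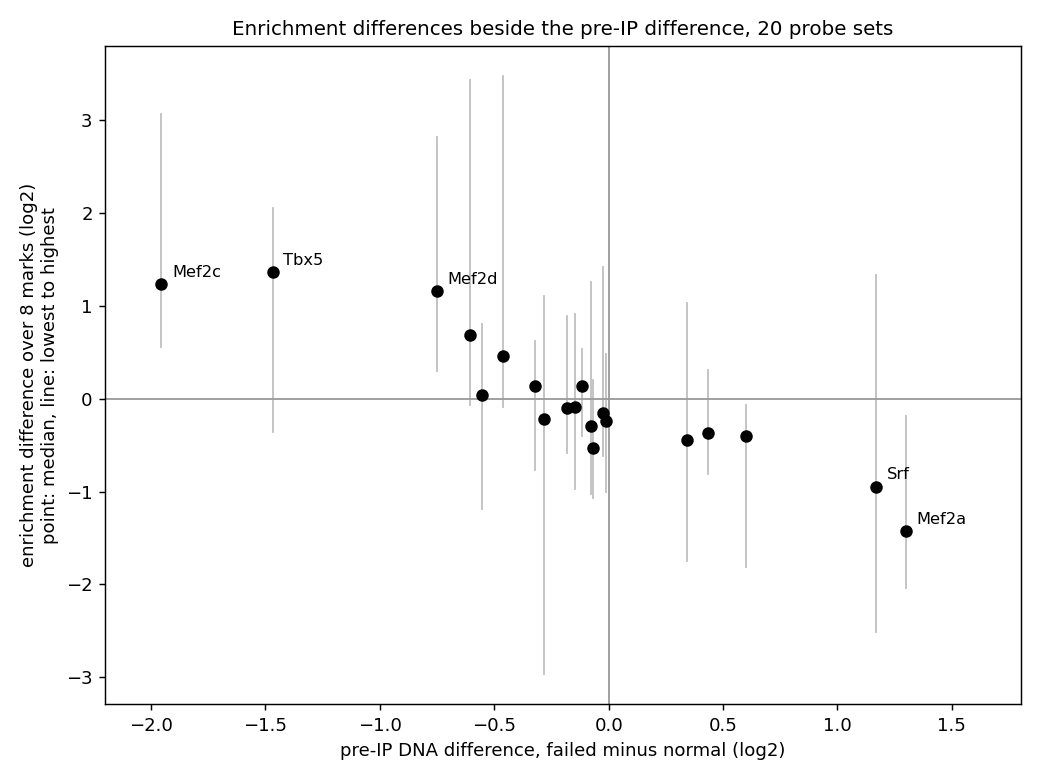
Median (points) and range (lines) of the enrichment difference over 8 marks, against the pre-IP difference, both failed minus normal on the log2 scale, for the 20 probe sets. Pre-IP is subtracted in every enrichment, so the falling line of points has a shared term; the named points have pre-IP differences of at least 0.75 in size.

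Of the 20 values past 2-fold 9 stayed past 2-fold in the same direction in ChIP alone. Hand2 held 3 of them. Its K4me2 intensity was 334 in the normal heart and 866 in the failed one at 1369817_at and 157 and 355 at 1374451_at, enrichments of 0.96 and 1.99 and of 0.91 and 2.16, and thus higher by 1.03 and 1.26. Both probe sets were higher under each alternative run, but by 0.28 and 0.85 after quantile normalization, both under 2-fold, and by 0.80 and 1.03 without rescaling. Its K9me3 went the other way at both, from 324 to 122 and from 68.7 to 31.9 in intensity, with differences of -1.75 and -1.03, the second below the level filter. The mRNA of Hand2 was nearly level over the same pair of hearts, as given above.

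Gata4 1370293_at had a K9me3 intensity of 494 in the normal heart and 213 in the failed one, a difference of -1.81 in enrichment and of -1.21 in ChIP alone. The other Gata4 probe set, 1387894_at, differed by 1.15 for K9me3, but lay below the level filter, so the gene has no common direction for this mark. Its K20me3 difference of 3.48 was from a normal value of 9.80 under the floor to 80.8, also below the level filter, and was 1.03 with a floor of 50. Srf 1388842_at had K4me3 of 76.2 and 157, a difference of 1.64, and K9me3 of 21.3 and 151, a difference of 3.43 at a probe set below the level filter for that mark. Its mRNA was higher as well, by 0.66. Mef2a 1378360_at was lower in K4me3, from 270 to 124, and in K9me2, from 293 to 133, by 1.06 and 1.07 in size, and Gata6 1368827_at in H3ac, from 389 to 192, at -1.01. With the mean of the 8 ChIP arrays as reference these fell under 2-fold, to -0.54, -0.56 and -0.72, and K4me3 at Srf 1388842_at to 0.41. Under that reference K9me3 at Gata4 1370293_at (-1.20), K9me2 at Mef2c 1372332_at (1.68) and K4me2 at Hand2 (1.45 and 1.31) stayed past 2-fold. So did K9me3 at Hand2 1369817_at. Nkx2-5, Tbx5 and Rcan1 had no difference past 2-fold at a value that passed the level filter. Below it, Rcan1 had K9me2 of 21.7 in the normal heart and 57.1 in the failed one, a difference of 1.42, beside its higher mRNA.

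Differences between the hearts were also compared among the probe sets of each gene. For the 5 genes with 2 probe sets, 14 of 40 combinations of gene and mark had both differing in the same direction, against 51.2% for all genes with 2. For Srf it was 1 of 8, K27me2, against 28.2% for all genes with 3, and for Mef2a 2 of 8, H3ac and K4me2, against 14.3% for all genes with 4. The side of pre-IP, with all probe sets and both hearts alike, recurred in 14 of 40 for the genes with 2 probe sets (30.8% of all), in 3 of 8 for Srf (18%) and in 3 of 8 for Mef2a (11.2%). Of the 14, Hand2 held 6. The 8 marks of a gene share the pre-IP arrays. None of these counts, for the 5 genes with 2 probe sets, Srf or Mef2a, are therefore of independent values.

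Genes with the most similar level over the 20 arrays, by Pearson's r of log2 intensity with all assays and both hearts together, were Tppp (0.92), Spag9 (0.91) and Actr2 (0.91) for Rcan1, and Golm1 (0.88), Arl10 (0.87) and Gstp1 (0.85) for Gata4 1387894_at. Over the 18 DNA arrays the values were 0.89, 0.89 and 0.82 for the first 3, and 0.86, 0.90 and 0.85 for the others. The arrays share 2 hearts and the differences between assays. The mRNA differences of these 6 genes lay between -0.07 and 0.71, below those of Rcan1 and of Gata4 at that probe set.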

How the data were processed

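The authors deposited 1 table of probe set intensity on a linear scale, for 20 arrays and 31099 probe sets, 57 of them controls. With the top and bottom 2% left out, array means lay between 500.03 and 500.17, so the deposited intensity values were already scaled. Its tool and version are not given in the sources used here. Per the labels, RNA was turned into biotin-labelled cDNA with an amplification kit, and DNA was amplified through in vitro transcription before labelling.

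Deposited medians ran from 189 to 415. Intensities were multiplied to give each array a median of 100, those under 10 (between 2.14% and 11.0% of an array) were set to 10 and log2 was taken, with Python 3.11.15 and pandas 2.3.3. Probe sets of several genes (436), of none listed, and controls were left out. Positions of probes were not used. The comparisons are those of the report: differences and counts, with no test, since each group has 1 array, whose number limits the precision. The counting of mRNA differences was tested on a simulated failed mRNA array, with less noise than the spread of the measured mRNA differences. The counting of marks was not tested in this way. Named beside the members are, of each list, the 2 passing genes with the highest and the 2 with the lowest differences, and a few set by name. For each mark some, not all, of the extreme probe sets are named. Ppp3cc and Csnk1a1 were named after their values were seen. The members, lists and rules were chosen with earlier results of these data known. Scaling, floor, level filter, the handling of several probe sets and the reference for enrichment were varied. Promoter letters are RefSeq's, on GRCr8.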

Additional observations from a re-analysis of the deposited data

How the results depend on the processing

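The direction of the median was kept under all alternatives run for the mRNA of the 10 genes, from 0.07 to 0.57, and for the target gene list, from 0.68, after quantile normalization, to 1.31. Without rescaling 1 probe set of the 20, in place of 2, was at least 2-fold higher in mRNA. The share of all probe sets 2-fold higher in mRNA was 6.02% without rescaling and 6.63% after quantile normalization, and that of lower ones 7.24%, 5.88% and, with no level filter, 10.6%. With no level filter 15.4% of all probe sets differed 2-fold in pre-IP. Of the mark medians, 1 moved by over 1.5-fold, that of K4me2 in the failed heart, to 0.15 without rescaling. Over the 8 marks, the 9 higher and 11 lower values became 4 and 10 with the pre-IP of both hearts averaged, 4 and 3 with the mean of the 8 ChIP arrays as reference, and 24 and 22 with no level filter.

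Some enrichment differences past 2-fold changed sign. With the pre-IP of both hearts averaged these were K4me2 and K20me3 at Mef2a 1383093_at (0.016 and 0.065), K4me3 and K9me3 at Mef2c 1372332_at (-0.47 and -0.22), and K4me3 and K27me2 at Tbx5 (-0.33 and -0.34). With the mean of the ChIP arrays as reference they were H4ac, K4me2 and K20me3 at Mef2a 1383093_at (0.082, 0.15 and 0.20) and K4me3 and K27me2 at Tbx5 (-0.056 and -0.071). Values at the floor changed sign as well: K9me2 at Srf 1374829_at was 0.46 without rescaling and 1.06 with a floor of 1, and with a floor of 50 K27me2 was 0.55 at Nkx2-5 and -0.32 at Srf 1374829_at. Both references take out the pre-IP difference between the hearts, and the floor sets the size of any difference from a value under it. With 1 array per group no replicate could be left out, and no paired analysis was possible because no group has a second sample. Dim probe sets limit the marks as well: 9 of 20 passed the level filter for K9me2 and 15 for H3ac.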
